A study of Mus musculus with 6 samples.

Results

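The 10 genes described here are the inhibitors of cyclin-dependent kinases and the D-type cyclins, chosen by name and matched by symbol to their mouse Ensembl identifiers. All 10 were found among the 38293 genes of the count table, and 9 of them passed the expression filter that left 14396 genes for testing. They comprise the 3 CIP/KIP inhibitors *Cdkn1a*, *Cdkn1b* and *Cdkn1c*, the 4 INK4 inhibitors *Cdkn2a*, *Cdkn2b*, *Cdkn2c* and *Cdkn2d*, and the cyclins *Ccnd1*, *Ccnd2* and *Ccnd3*. The question was which inhibitors besides *Cdkn1a* differed between hnRNP L deficient and wt cells.

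RNA was sequenced from Lin-cKit+ fetal liver (FL) cells, a sorted fraction that holds hematopoietic stem and progenitor cells, of 3 wt and 3 hnRNP L deficient C57BL/6 embryos at embryonic day 14.5, with 1 library per embryo. The hnRNP L deficient embryos carried the genotype VavCre+hnRNP L fl/fl, in which Cre recombinase under the Vav promoter deletes the floxed gene for this RNA-binding splice factor in hematopoietic cells. The labels name the controls wild-type for hnRNP L, and a figure legend of the study writes their genotype as L fl/fl. The embryo numbers in the labels share their first part between hnRNP L deficient replicates 2 and 3 and between wt replicate 1 and hnRNP L deficient replicate 1, and what it stands for is not given. The labels call the source fetal liver cells and the tissue whole embryo, while the sort is given by the study's methods.

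D-type cyclins bind the kinases CDK4 and CDK6, and the complexes phosphorylate the retinoblastoma protein, which releases E2F factors and lets a cell enter S phase. INK4 proteins bind CDK4 and CDK6 and keep D-type cyclins off, whereas CIP/KIP proteins bind cyclin and kinase together and act most strongly on complexes of CDK2. *Cdkn1a* encodes p21, a classical target of p53, and *Cdkn1b* and *Cdkn1c* encode p27 and p57, which are known for keeping hematopoietic stem cells quiescent.

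Reads counted on genes ranged from 55952160 to 76157226 per library, a depth at which 3 reads corresponded to between 0.0394 and 0.0536 CPM, the counts scaled to a common library size. *Hnrnpl* itself was measured at 552, 531 and 528 CPM in the wt libraries and at 242, 288 and 270 CPM in the hnRNP L deficient ones, each given in the order of replicates 1 to 3. On the log2 scale the change was -1.01 ± 0.088 (SE, n = 3 and 3; adjusted p = 0.0072 in edgeR's quasi-likelihood test), so that reads on the gene remained in every hnRNP L deficient library. *Kit*, the surface receptor used in the sort, was present in all libraries, at 423 to 656 CPM in wt and 325 to 368 CPM in hnRNP L deficient cells. The wt replicate 2 library stood apart. The summed level of 8 markers of granulocyte and monocyte precursors was 8219 CPM in it, against 599 and 1524 CPM in wt replicates 1 and 3 and 247 to 826 CPM in the hnRNP L deficient libraries. The summed level of 7 stem and progenitor markers was 558 to 836 CPM in wt and 379 to 415 CPM in hnRNP L deficient libraries. *Kit* made up most of this sum in every library. Of the 7 markers, 4 fell (*Kit*, *Cd34*, *Flt3* and *Hlf*), where 9.85% of all genes tested did. *Slamf1*, *Mecom* and *Ly6a* were not called, and *Slamf1* was higher in every hnRNP L deficient library than in every wt library. In bulk libraries, fewer cells of a type and less RNA per cell cannot be told apart.

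For *Cdkn1a* the reference holds 2 promoters, which are shown because the reads on their first exons are compared further on. Both windows are RefSeq sequence of GRCm38.p6 on the plus strand, from 250 bases before to 50 bases after a start site. Capitals mark the single match to the p53 element, searched as 2 adjacent half-sites of 10 bases with at most 1 mismatch.

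Cdkn1a upstream promoter, chr17:29090729-29091028: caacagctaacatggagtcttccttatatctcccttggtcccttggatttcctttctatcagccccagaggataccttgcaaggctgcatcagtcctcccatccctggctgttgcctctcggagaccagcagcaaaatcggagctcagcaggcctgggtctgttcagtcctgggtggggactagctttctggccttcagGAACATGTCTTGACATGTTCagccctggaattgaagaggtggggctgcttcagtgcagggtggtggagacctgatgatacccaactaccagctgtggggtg

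Cdkn1a proximal promoter, chr17:29093519-29093818: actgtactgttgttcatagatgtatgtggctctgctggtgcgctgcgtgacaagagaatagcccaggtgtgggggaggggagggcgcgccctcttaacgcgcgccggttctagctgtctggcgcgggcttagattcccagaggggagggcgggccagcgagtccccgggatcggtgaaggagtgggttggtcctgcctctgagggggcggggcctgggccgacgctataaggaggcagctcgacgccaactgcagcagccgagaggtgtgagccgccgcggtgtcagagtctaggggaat

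The match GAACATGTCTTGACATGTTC lies on chromosome 17 from 29090928 to 29090947, begins 51 bases before the upstream start site and departs from the element at 1 base. RefSeq windows were found for 7 of the 10 genes, 11 windows in all, and this was the only one of the 11 with a match. No window was available for *Ccnd1*, *Ccnd2* and *Cdkn1c*, and sequence outside the windows of 300 bases was not searched. Among 32851 windows of the same length, 29 (0.0883%) held such a match. A match in letters is a description of the sequence and not a measurement of binding.

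**Figure D1:**
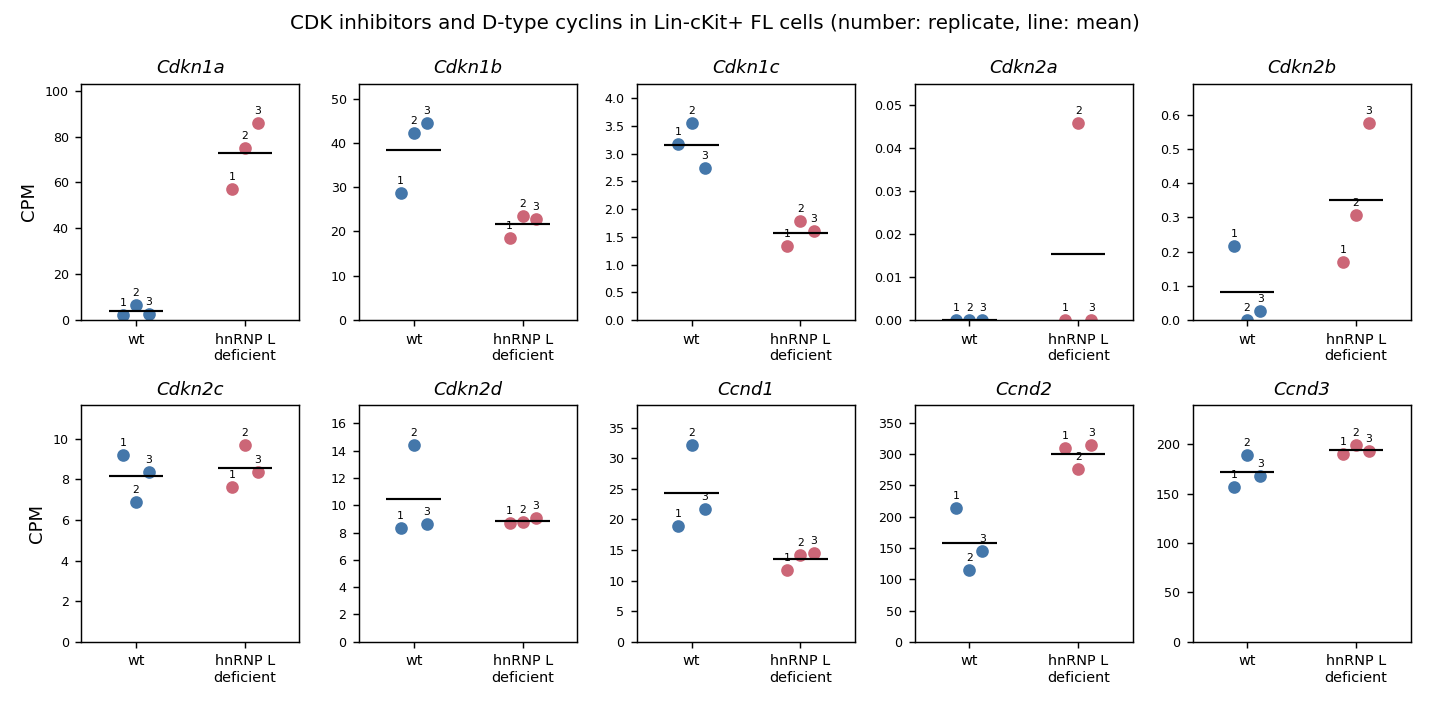
Level of each of the 10 genes in CPM (vertical axes, each from 0 and on its own scale) in 3 wt (blue) and 3 hnRNP L deficient (red) libraries, with the replicate number beside each point and a line at the mean. *Cdkn1a*, *Ccnd2* and *Ccnd3* lay higher in all 3 hnRNP L deficient libraries than in every wt library, *Cdkn1b*, *Cdkn1c* and *Ccnd1* lay lower, and the 4 INK4 genes overlapped.

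Of the 9 genes tested, 5 passed an adjusted p-value of 0.05, where 19.2% of all genes tested did. *Cdkn1a* and *Ccnd2* rose (9.32% of all genes tested rose), and *Cdkn1b*, *Cdkn1c* and *Ccnd1* fell (9.85% fell). All 3 CIP/KIP inhibitors were thus called, in opposite directions, and none of the 3 INK4 inhibitors tested was. The 9 genes had a median log2 fold change of 0.073, beside -0.026 over all genes tested. In 6 of the 10 genes the groups did not overlap, against 45.5% of all genes tested.

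Among the CIP/KIP inhibitors, *Cdkn1a* (chromosome 17, 29090976 to 29100727, plus strand) was measured at 2.20, 6.47 and 2.75 CPM in wt and at 57.0, 75.2 and 85.9 CPM in hnRNP L deficient cells. The groups were far apart, and wt replicate 2 was the highest of the wt libraries. The log2 fold change was 4.26 ± 0.47 (SE), a 19.1-fold rise (adjusted p = 0.0125), with a 95% interval from 3.10 to 5.41. It was 4.87 without wt replicate 2.

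*Cdkn1b* (chromosome 6, 134920401 to 134925513, plus strand) was measured at 28.8, 42.2 and 44.5 CPM in wt and 18.5, 23.5 and 22.9 CPM in hnRNP L deficient cells. Each hnRNP L deficient library was below each wt library, although wt replicate 1 came closer to them than the other wt libraries did. The gene fell by 0.83 on the log2 scale (SE 0.18, adjusted p = 0.0267), or 1.78-fold.

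*Cdkn1c* (chromosome 7, 143458339 to 143461050, minus strand) was the lowest of the family in CPM in hnRNP L deficient cells, with 3.17, 3.55 and 2.74 CPM in wt and 1.34, 1.79 and 1.61 CPM in hnRNP L deficient cells. These values rest on 176 to 213 reads per wt library and 86 to 120 reads per hnRNP L deficient library. The groups did not overlap, and the gene fell by 1.00 on the log2 scale (SE 0.23, adjusted p = 0.0289). *Cd34* (log2 fold change -2.21), *Flt3* (-3.35) and *Hlf* (-1.40), markers of early progenitors, were lower in the same libraries. *Kit* was called lower too (-0.62, adjusted p = 0.0402), whereas the remaining stem and progenitor markers of the list were not called. *Slamf1* was higher in every hnRNP L deficient library without being called (0.54, adjusted p = 0.20). *Mecom* (-0.091, adjusted p = 0.82) and *Ly6a* (-0.52, adjusted p = 0.54) overlapped between the groups. The part of early progenitors in the fall of *Cdkn1c* was not tested.

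Per kb of the longest coding transcript, the 3 CIP/KIP genes summed to 9.04, 14.2 and 12.5 CPM per kb in wt replicates 1 to 3 and to 32.2, 42.3 and 47.2 CPM per kb in hnRNP L deficient replicates 1 to 3. The ratio of the group means was 3.39 (exact two-sided permutation p = 0.1, the smallest that 3 libraries against 3 allow). *Cdkn1b* made up most of the family in wt, at 71.0% ± 6.5 (SD, n = 3) of its reads per kb, and 11.8% ± 1.0 (SD, n = 3) in hnRNP L deficient cells. *Cdkn1a* went from 14.7% ± 6.2 to 86.1% ± 1.3, and *Cdkn1c* from 14.3% ± 3.6 to 2.07% ± 0.24. The groups did not overlap for any of the 3 shares (exact permutation p = 0.1 each, adjusted p = 0.2 over the 10 shares tested in the 3 families). A share does not depend on the scaling between libraries, but a rise of 1 gene lowers the shares of the others.

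**Figure D2:**
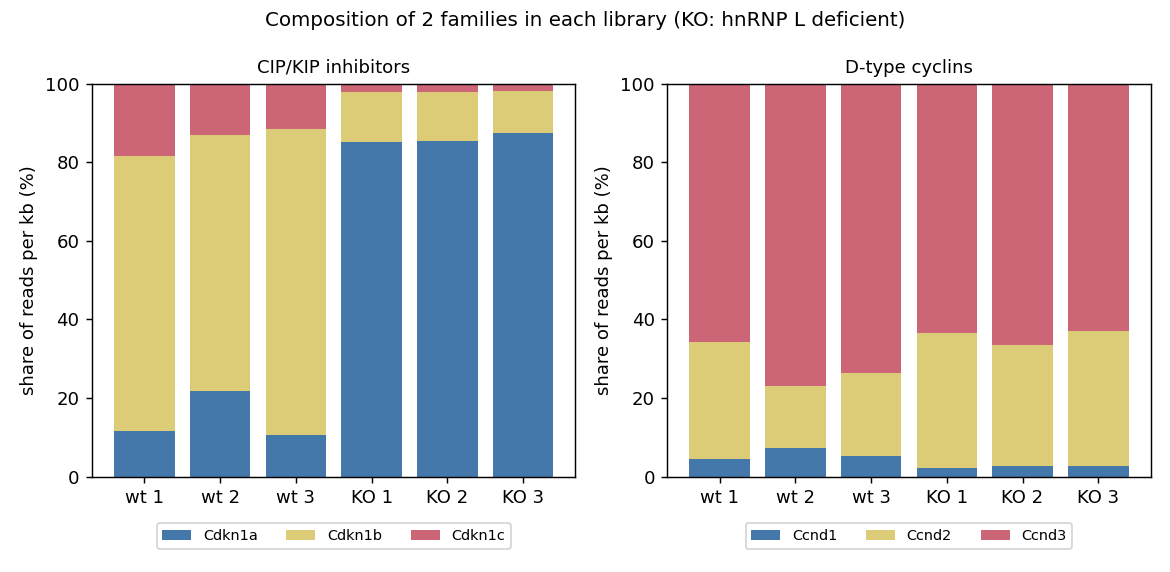
Share of each gene among the reads per kb of its family (vertical axis, percent) in each library, for the CIP/KIP inhibitors (left) and the D-type cyclins (right). *Cdkn1a* took 10.6% to 21.8% of the CIP/KIP reads per kb in wt and 85.2% to 87.6% in hnRNP L deficient libraries, whereas *Ccnd3* was the largest of the D-type cyclins in all 6 at these transcript lengths.

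The INK4 inhibitors gave no call in edgeR, and none of the 3 tested had an unadjusted p under 0.05. DESeq2 called none either, and limma-voom with sample weights called *Cdkn2b*. *Cdkn2a*, the gene of p16 and of the p53-stabilizing protein ARF, had 0 reads in 5 libraries and 3 reads in hnRNP L deficient replicate 2, so it was not tested and a difference was not detectable at this depth. A count of 0 allows up to 0.0536 CPM in the shallowest library. *Cdkn2b*, the p15 gene beside it on chromosome 4, had 12, 0 and 2 reads in wt and 11, 20 and 43 reads in hnRNP L deficient replicates 1 to 3. The groups overlapped, since wt replicate 1 had more reads than hnRNP L deficient replicate 1. The fitted log2 fold change of 2.15 ± 1.07 (SE) missed the threshold (adjusted p = 0.19), and its 95% interval ran from -0.37 to 4.67. It was 4.41 without wt replicate 1 (adjusted p = 0.0297).

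*Cdkn2c*, the p18 gene, was measured at 9.18, 6.89 and 8.35 CPM in wt and 7.63, 9.70 and 8.36 CPM in hnRNP L deficient cells. The ranges lay over each other, and the 95% interval of the log2 difference, from -0.33 to 0.48, bounds it below 2-fold. *Cdkn2d*, the p19 gene, was measured at 8.32, 14.4 and 8.64 CPM in wt and 8.70, 8.77 and 9.06 CPM in hnRNP L deficient cells. Only wt replicate 2 stood off, above all others, and the log2 fold change of -0.24 (adjusted p = 0.47) was 0.061 without that library. The 4 INK4 genes summed to 9.47 to 12.9 CPM per kb in wt and 9.32 to 10.4 CPM per kb in hnRNP L deficient cells (ratio of means 0.929, exact permutation p = 0.8). *Cdkn2d* held 67.6% ± 9.6 (SD, n = 3) of this sum in wt and 62.6% ± 3.0 in hnRNP L deficient cells, and *Cdkn2c* held 31.8% ± 9.0 and 34.8% ± 2.7. Set against all 7 inhibitors, *Cdkn1a* held between 5.63% and 11.5% of the reads per kb in the wt libraries and between 66.1% and 72.0% in the hnRNP L deficient libraries.

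Among the D-type cyclins, *Ccnd2*, a cyclin induced by cytokine signalling, was measured at 214, 115 and 144 CPM in wt and 310, 276 and 315 CPM in hnRNP L deficient cells. The lowest hnRNP L deficient value exceeded the highest wt value, and wt replicate 2 was the lowest library. The gene rose by 0.93 ± 0.22 (SE) on the log2 scale, or 1.90-fold (adjusted p = 0.0322). The change was 0.74 without wt replicate 2 (adjusted p = 0.0186). *Ccnd1* moved the other way, from 18.9, 32.2 and 21.7 CPM in wt to 11.7, 14.1 and 14.5 CPM in hnRNP L deficient cells. Here wt replicate 2 was the highest library, and the groups did not overlap. *Ccnd1* fell by 0.85 on the log2 scale (SE 0.21, adjusted p = 0.0349), and the log2 fold change without wt replicate 2 was -0.59 (adjusted p = 0.0197).

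*Ccnd3*, the most abundant of the 3 per kb of the longest coding transcript, was measured at 157, 190 and 168 CPM in wt and 190, 200 and 193 CPM in hnRNP L deficient cells. The lowest hnRNP L deficient library lay just above wt replicate 2, the highest wt library, and the log2 fold change of 0.18 ± 0.086 (SE) missed the threshold (adjusted p = 0.17). Without wt replicate 2 it was 0.26 (adjusted p = 0.0217). That library also had the high granulocyte and monocyte markers given above, and their part in these differences was not tested.

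Together the 3 cyclins summed to 113, 116 and 108 CPM per kb in wt and 142, 142 and 145 CPM per kb in hnRNP L deficient replicates 1 to 3, a ratio of means of 1.27 (exact permutation p = 0.1). *Ccnd2* went from 22.2% ± 7.2 (SD, n = 3) to 33.2% ± 2.1 of that sum, with the lowest hnRNP L deficient share, 30.7%, close to the 29.9% of wt replicate 1. *Ccnd1* went from 5.74% ± 1.5 to 2.51% ± 0.27, and *Ccnd3* from 72.1% ± 5.8 to 64.3% ± 2.0 with overlap (exact permutation p = 0.2).

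Per kb, wt levels ran in the order *Ccnd3*, *Ccnd2*, *Cdkn1b*, *Cdkn2d*, *Ccnd1*, *Cdkn2c*, *Cdkn1a*, *Cdkn1c*, *Cdkn2b* and *Cdkn2a*. *Ccnd3* at 81.2 ± 7.8 (SD, n = 3) and *Ccnd2* at 24.9 ± 8.1 CPM per kb were clear of each other and of the rest. The order of these 2 rests on the length chosen (2113 bases for *Ccnd3* and 6330 for *Ccnd2*). With all exonic bases of each gene as its length (8775 and 9409) the wt means were 19.6 and 16.8 CPM per kb with overlapping ranges, and *Ccnd2* exceeded *Ccnd3* in all 3 hnRNP L deficient libraries and in wt replicate 1, as it did in CPM. *Cdkn1b* (8.45 ± 1.86), *Cdkn2d* (7.35 ± 2.41) and *Ccnd1* (6.49 ± 1.88) overlapped, as did *Cdkn1a* (1.83 ± 1.12) with both *Cdkn2c* (3.29 ± 0.47) and *Cdkn1c* (1.66 ± 0.21). In hnRNP L deficient cells *Cdkn1a* moved from rank 7 to rank 3, at 34.9 ± 7.0 CPM per kb, next to *Ccnd2* at 47.4 ± 3.4, and the ranges of these 2 did not overlap (highest *Cdkn1a* 41.3, lowest *Ccnd2* 43.6). The ranks and neighbours of *Cdkn1a* likewise rest on the length chosen, 2080 bases here against 3553 with all exonic bases.

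**Figure D3:**
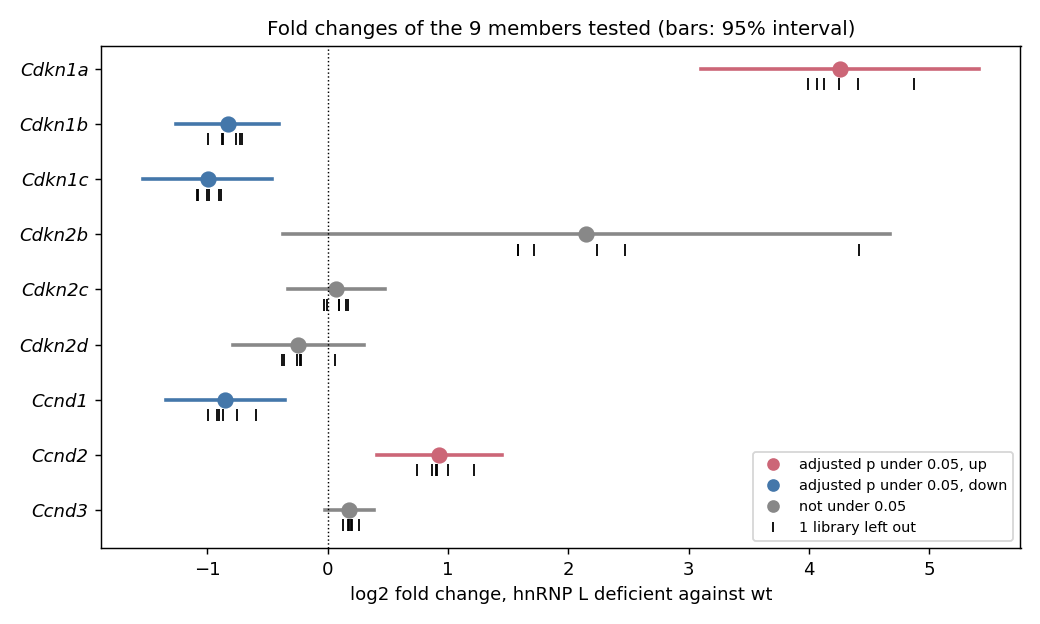
Log2 fold change of the 9 genes tested (horizontal axis) with its 95% interval as a bar and, beneath it, the values from 5 libraries, with a different one omitted each time, as ticks. The intervals of *Cdkn1a*, *Cdkn1b*, *Cdkn1c*, *Ccnd1* and *Ccnd2* lie clear of 0, and *Cdkn2b* has the widest, from -0.37 to 4.67.

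The 5 calls were the same genes in DESeq2, with other scalings and with other expression filters. None of the 5 passed when any of wt replicate 3 or hnRNP L deficient replicates 1, 2 or 3 was left out, where adjusted p for *Cdkn1a* was 0.0525, 0.0598, 0.0679 and 0.0871 and the number of genes called fell from 2759 to between 5 and 17. All 5 kept an unadjusted p under 0.05 in these 4 fits and the same direction in all 6.

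Exon bins, the exonic segments on which reads were counted separately, were available here for 5 libraries, without hnRNP L deficient replicate 1. Of 50 bins of the 10 genes, 40 were tested for a change in usage relative to the rest of their gene, and edgeR's diffSpliceDGE called 0 of them (0.0288% of all bins tested were called), with 1 at an unadjusted p under 0.05. The limma diffSplice test also called 0, with 2 such bins, both of *Ccnd3*. The 1 bin in edgeR was the first of *Ccnd3* by position, with 44, 56 and 65 reads in wt and 16 and 24 reads in hnRNP L deficient libraries. Its log2 usage difference was -1.83 (unadjusted p = 0.0027, adjusted p = 1). All 3 wt libraries had more reads there, while bin 4 of the gene had 1058 to 1609 reads in wt and 1689 and 1936 reads in hnRNP L deficient libraries. Bin 2 of *Ccnd3* went the same way as bin 1, with 36, 50 and 42 reads in wt and 19 and 30 in hnRNP L deficient libraries. Its log2 usage difference was -1.20 (unadjusted p = 0.052 in edgeR and 0.021 in limma).

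For *Cdkn1a* the bins separate the 2 first exons. The upstream first exon (bin 1, chromosome 17, 29090979 to 29091101), which begins at the start site of the window with the p53 element, had 1, 0 and 0 reads in wt replicates 1 to 3 and 52 and 87 reads in hnRNP L deficient replicates 2 and 3. The proximal first exon (bin 2, 29093769 to 29093861) had 12, 23 and 7 reads in wt and 435 and 551 reads in hnRNP L deficient libraries. Both first exons were thus higher in the hnRNP L deficient libraries, and the proximal one held most of the reads. Of the reads on either, the upstream exon took 10.7% (exact 95% interval 8.08% to 13.8%) and 13.6% (11.1% to 16.5%) in hnRNP L deficient replicates 2 and 3. In wt it took 1 of 43 reads in the 3 libraries together, or 2.33% (0.0589% to 12.3%). The wt interval overlaps the others, and neither bin was called in the usage test (adjusted p = 1 each), so a change in promoter choice was not detectable at the wt depth. These intervals cover counting error only.

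**Figure D4:**
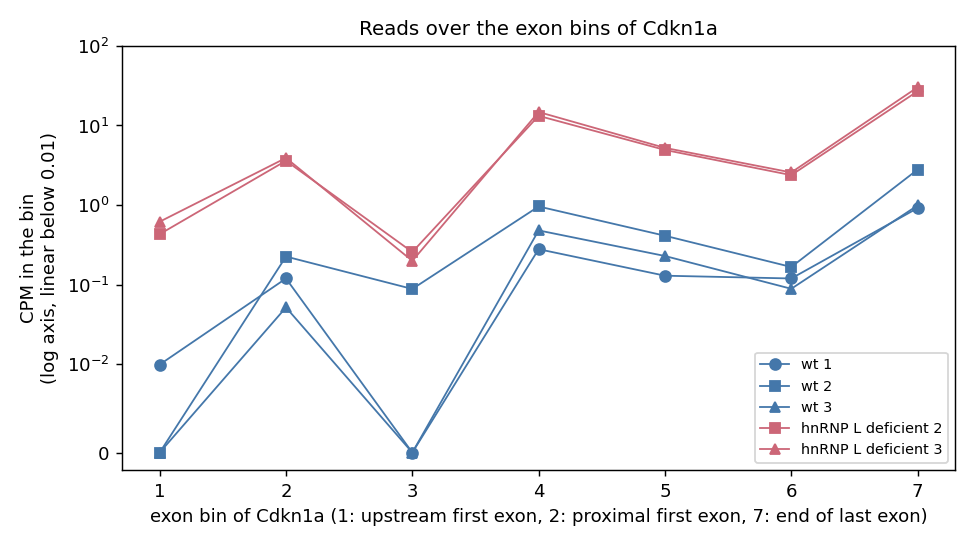
Reads in CPM (vertical axis, logarithmic and linear below 0.01) over the 7 exon bins of *Cdkn1a* in order of position, with bins 1 and 2 as the 2 first exons, for 3 wt (blue) and 2 hnRNP L deficient (red) libraries. The hnRNP L deficient lines lie above the wt lines in all 7 bins, and bin 1 had 1 read in the 3 wt libraries together.

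The only reads on *Cdkn2a* bins were 3 and 1 in bins 5 and 6 of hnRNP L deficient replicate 2. The bins of *Cdkn1b* differed in log2 usage by -0.069 to 0.090 and those of *Ccnd2* by -0.11 to 0.43, none with an unadjusted p under 0.05.

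The genes around these regulators were taken from 8 lists of 114 genes, of which 111 were tested. In them 12 rose and 11 fell, 23 in all, a share near the 19.2% of all genes tested. Of 10 tested G1 and S phase kinases, cyclins and phosphatases, 2 rose. These were *Cdc25a*, a phosphatase that activates CDK2 (log2 fold change 0.64, adjusted p = 0.0165), and *Ccne1*, a cyclin E and partner of CDK2 (0.70, adjusted p = 0.0402). The partners of the D-type cyclins did not pass. *Cdk4* was at 587 to 614 CPM in wt and 630 to 651 CPM in hnRNP L deficient cells (adjusted p = 0.40), *Cdk6* had a log2 fold change of 0.077 (adjusted p = 0.83) and *Cdk2* one of -0.28 (adjusted p = 0.14).

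Of 13 genes of the Rb and E2F group, *Tfdp1*, an E2F dimer partner, rose (0.31, adjusted p = 0.0369), and *Tfdp2* (-0.44), *Rbl2* (-0.42) and *Rbl1* (-0.28), the last 2 being the pocket proteins p130 and p107, fell. *Rb1* (0.0053, adjusted p = 0.98) and *E2f1* (-0.17, adjusted p = 0.28) did not pass. Of 16 E2F targets of S phase, 2 rose, *Rrm2* of nucleotide synthesis (0.64) and the helicase subunit *Mcm5* (0.26), and 0 fell in edgeR. Of 14 mitotic genes, *Cdc20* rose (0.30), and *Cdc25b* (-0.65) and *Ccnb2* (-0.40) fell.

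Among 14 genes for the turnover of these proteins, *Fbxo31*, an F-box protein for cyclin D1, rose (0.43, adjusted p = 0.0405), and *Skp2*, which targets p27 for degradation, had a log2 fold change of 0.15 (adjusted p = 0.31). Of 16 genes that control the Ink4 and Arf locus or act downstream of it, *Mdm2*, the ubiquitin ligase of p53 and itself a p53 target, rose (0.90, adjusted p = 0.0099) as did *Eed* (0.36), and the Polycomb gene *Cbx7* fell (-0.53). *Bmi1*, the Polycomb repressor of Ink4a, was at 0.085 (adjusted p = 0.51) and *Trp53* mRNA at 0.14 (adjusted p = 0.26) on the same scale.

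Of 17 transcription factors for CIP/KIP and D-type cyclin genes, 0 rose and 3 fell in edgeR. These were *Mycn* (-1.07), *Foxo4* (-0.66), of a family that activates *Cdkn1b*, and *Smad3* (-0.61), a mediator of TGF-beta signals. The other listed genes of the *Foxo4* family, *Foxo3* (-0.21, adjusted p = 0.13) and *Foxo1* (-0.34, adjusted p = 0.18), were not called. *Myc*, which activates *Ccnd2* and represses *Cdkn1a*, was higher in all 3 hnRNP L deficient libraries but just missed the threshold (0.45, adjusted p = 0.0539). Of 11 other inhibitors of the cell cycle tested, 3 rose and 2 fell. The p53 targets *Trp53inp1*, at 1.49 to 4.75 CPM in wt and 16.5 to 25.6 CPM in hnRNP L deficient cells, and *Ccng1* rose (2.76 and 1.45), as did *Gadd45g* (0.64), whereas *Ccng2* (-2.03), a cyclin G of quiescent cells, and *Btg1* (-1.39), an antiproliferative gene, fell. *Ccng2* and *Btg1* were both highest in wt replicate 2. The other 6 tested were not called, among them *Btg2* (0.066, adjusted p = 0.91) and *Gadd45a* (0.23, adjusted p = 0.20), which overlapped between the groups.

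**Figure D5:**
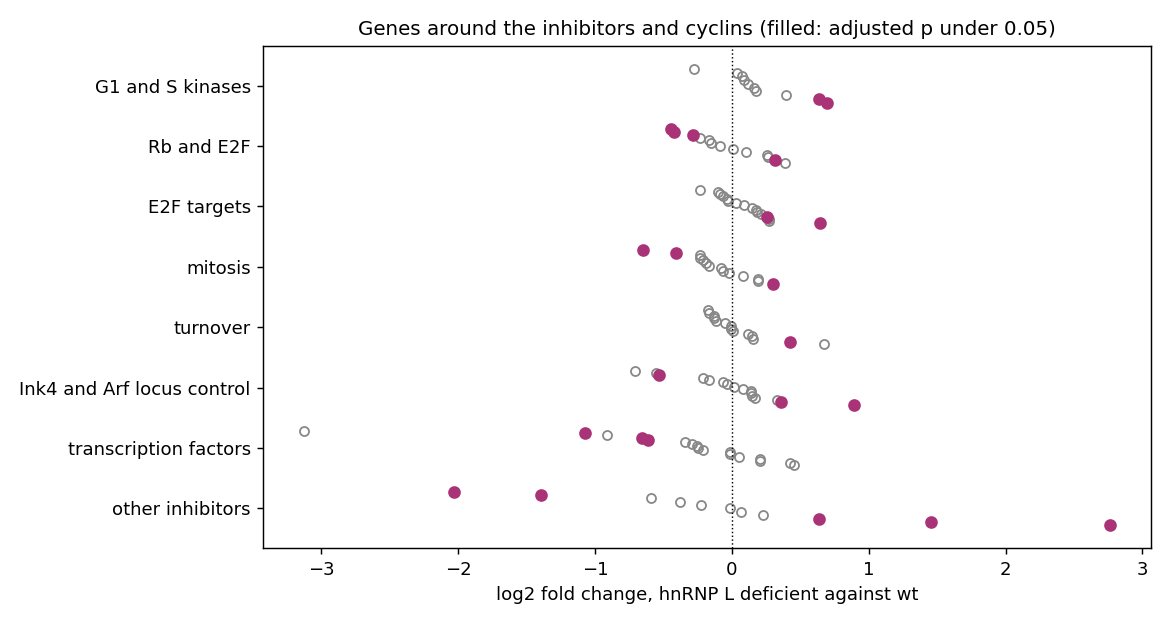
Log2 fold change (horizontal axis) of the 111 genes tested in 8 lists around the inhibitors and cyclins (rows), with filled points for an adjusted p under 0.05. The list of other inhibitors spans the widest range of called genes, from -2.03 (*Ccng2*) to 2.76 (*Trp53inp1*).

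Among 9583 genes with a mean of at least 5 CPM, the 3 with the pattern most like that of *Cdkn1a* over the 6 libraries were *Aldoa*, *Coa3* and *Dcxr* (Pearson r = 0.998, 0.995 and 0.993 of log2(CPM + 0.1)). For *Cdkn1c* they were *Hnrnph1*, *Tceanc* and *Tsga10* (r = 0.999, 0.996 and 0.995), and for *Cdkn2b* *Snhg12*, *Ndufa12* and *Enpp4* (r = 0.985, 0.975 and 0.975). A correlation takes no account of the size of a change, and *Hnrnph1* had a log2 fold change of only -0.090 (adjusted p = 0.37). The pattern of *Cdkn2b* rests on 0 to 43 reads per library. These are the highest values of many over 6 libraries that share their genotype groups, and they describe likeness only.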

How the data were processed

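RNA-seq of sorted FL Lin-cKit+ cells from 3 wt and 3 VavCre+hnRNP L fl/fl embryos was used, with groups taken from the labels. The authors aligned paired reads of stranded mRNA libraries to GRCm38 with Tophat v2.0.10, used HTSeq for reads per Ensembl gene and the DEXSeq script for reads per exon bin, and deposited the raw counts. The Ensembl release and counting options are not given in the sources used here. Reads on no gene (46.7% to 53.3% of a library, mostly not uniquely aligned) were left out. Nothing says that the embryos came from separate litters, so p-values measure the spread between these embryos.

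Counts were scaled by TMM and tested with edgeR 4.0.16 (R 4.3.3) by the robust quasi-likelihood test with default expression filter and Benjamini-Hochberg adjustment over all genes tested. SE was taken as log2 fold change over the root of F. Exact two-sided permutation tests used 3 libraries against 3. Lengths for values per kb are those of the longest coding transcript in GENCODE M21. For exon bins, diffSpliceDGE was run on 5 libraries with a minimum mean of 10 reads per bin. Bins were placed on the genome by cutting annotated transcripts, added in order of name until the cut gave the deposited number of bins. For *Cdkn1a* this used 3 of 5 transcripts. The placement thus rests on a match in number, and bins of genes without such a match were not placed. Steps were tested on simulated data.

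The 10 genes and all lists were chosen with earlier results of these data known. Named besides them were up to 4 genes per list with the largest change among those with adjusted p under 0.05, *Cdk4*, *Cdk6*, *Cdk2*, *Rb1*, *E2f1*, *Skp2*, *Bmi1*, *Myc* and *Trp53* whatever their result, and for the 3 genes with the largest changes the 3 most alike. *Gadd45g*, *Gadd45a*, *Btg2*, *Foxo1*, *Foxo3* and the markers were named outside this rule. The results of 2 marker lists are not reported here. Alternatives were DESeq2 1.42.0, limma-voom (limma 3.58.1) with sample weights, other scalings and filters, no robust estimation, a test against a 2-fold change, leaving out each library, and a block on the label number. For exon bins they were limma diffSplice, at least 50 reads and leaving out each library, and for shares other lengths.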

Additional observations from a re-analysis of the deposited data

How the results depend on the processing

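The members called numbered 5 in the reported fit and 0 in the test against a 2-fold change (1 at an unadjusted p under 0.05), and between 0 and 6 when 1 library was left out. The genes called, 2759 as reported, numbered 5350 with limma-voom, 9 against a 2-fold change, and from 5 without wt replicate 3 to 4791 without wt replicate 1. The cause of these shifts was not tested. With limma-voom *Cdkn2b* and *Ccnd3* were called in addition. With 1 library left out, the log2 fold change of *Cdkn2c* ranged from -0.033 (without wt replicate 2) to 0.17, with -0.0072 without hnRNP L deficient replicate 2, and that of *Cdkn2d* from -0.38 to 0.061 (without wt replicate 2), and neither was called in any of these fits. The share of *Ccnd1* among D-type cyclins differed by -3.22 percentage points, by -4.31 without division by length and by -7.50 with all exonic bases as the length, an alternative chosen after seeing the data. That of *Cdkn1c* among CIP/KIP inhibitors differed by -12.3 points, and by -5.53 without division by length. No member bin was called with the other exon tool, with 50 reads or without any 1 wt library. The exon fits without hnRNP L deficient replicate 2 or 3 left 1 library in that group, assumed to vary like wt, and say little. The first part of the label number is shared by wt and hnRNP L deficient replicate 1 and by hnRNP L deficient replicates 2 and 3. A fit with it as a replicate block, added after seeing the data, has 1 residual degree of freedom, takes the genotype difference from the one mixed pair and the spread from the other. It called 5334 genes and 6 members, the 5 reported and *Ccnd3*, and gave -0.34 for *Cdkn2b*, -0.27 for *Cdkn2c* and 0.064 for *Cdkn2d*, which were not called. In the mixed pair alone, with no test, *Cdkn1a* differed by 4.64, *Cdkn1b* by -0.64, *Cdkn1c* by -1.19, *Ccnd1* by -0.68, *Ccnd2* by 0.53 and *Cdkn2b* by -0.22 on the log2 scale. *Cdkn2a* and the wt first exons of *Cdkn1a* rest on few reads.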

Other observations

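The other marker lists bear on what else the sorted fraction held. Of 8 granulocyte and monocyte markers 1 was called lower, *Csf1r* (log2 fold change -3.24). All 8 had negative log2 fold changes, the smallest in size being -1.32, and wt replicate 2 held the highest level of each. The counts of markers that fell, meaning called lower, stand beside 9.85% of all genes tested. Hepatocyte markers summed to 112 to 235 CPM in wt and 21.3 to 72.1 CPM in hnRNP L deficient libraries, and 2 of 6 fell. Endothelial and stromal markers summed to 16.7 to 46.1 and 7.39 to 8.14 CPM, and 1 of 4 tested fell. That gene, *Pecam1* (log2 fold change -2.07), made up most of the sum in every library and was highest in wt replicate 2. *Cdh5*, *Kdr* and *Col1a1* overlapped between the groups and were not called. B lymphoid markers summed to 5.74 to 28.1 and 1.93 to 3.37 CPM, with 2 of 5 tested lower, and T lymphoid markers to 2.29 to 3.52 and 1.13 to 1.37 CPM, with 1 of 2 lower and *Cd8a* at 0 reads in all libraries. Mast cell markers summed to 41.1 to 266 and 23.4 to 87.6 CPM, and 0 of 6 were called in edgeR. Their part in the results on inhibitors and cyclins was not tested.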
